A study of Mus musculus with 2 samples.

Results

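Transcription factors that make and keep a B cell were described in mouse spleen RNA, together with the factors that move a B cell into the germinal centre or on to an antibody-secreting plasma cell. The genes were chosen by name: every probe set, a group of short oligonucleotides that reads a transcript, whose annotated gene symbol was a member was taken. Of 9 genes sought, 8 were found, out of 8251 genes that a probe set of their own measured on the arrays. They were the identity factors Pax5, Ebf1, Pou2af1, Pou2f2, Spib and Ikzf1, the germinal centre factor Bcl6 and the plasma cell factor Prdm1. Ikzf3, the Ikaros relative Aiolos, had no probe set under its symbol or gene identifier in the annotation and was not analysed here. The 8 genes had 12 probe sets, and 0 further probe sets named a member together with another gene.

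The study hybridised total RNA of spleen, bought from a supplier under a single catalogue number, to 2 oligonucleotide arrays, called array 1 and array 2 here. Strain, age, sex and treatment of the animals are not given in the labels, and no second condition is given, so the arrays form 1 group and no p-value was computed. Nothing in the labels tells whether each array had its own tube of RNA, so their spread may be technical only. Signals are intensities on a linear scale as deposited. A gene was called bright when its best probe set exceeded the 60th percentile of each array. That cutoff was 346.32 for array 1 and 342.22 for array 2. The background was the highest of 15 probe sets for bacterial transcripts, 95 on array 1 and 76.2 on array 2. Because the brightness of a probe set depends on its own sequence as well as on the transcript, the genes are not ranked against each other. In whole spleen RNA, fewer cells of a type and less RNA per cell cannot be told apart.

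In B cell development, Ebf1 and Ikzf1 open the B lineage programme and Pax5 then commits the cell to it by activating B cell genes and silencing those of other lineages. Pou2f2 (Oct-2) binds the octamer element of antibody gene promoters, Pou2af1 (OCA-B) is its coactivator in B cells, and Spib is an Ets factor that acts with its relative PU.1 downstream of the B cell receptor. In the germinal centre Bcl6 represses genes of plasma cell differentiation, Prdm1 (Blimp-1) among them, and Prdm1 in turn shuts off Bcl6, Pax5 and other B cell genes when a plasma cell forms. Several of these factors also work outside B cells: Ikzf1 in most lymphocytes, Spib in plasmacytoid dendritic cells, Bcl6 in follicular helper T cells, and Prdm1 in effector T cells and other tissues.

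The identity factors were bright for the most part and the fate factors were divided. Of the 6 identity factors 5 were bright, all but Ebf1. Of the 2 fate factors 1 was bright, Bcl6. Together 6 of 8 factors were bright, against 45.2% of all 8251 genes, and 8 of 8 exceeded the highest bacterial control on both arrays, against 73.9% of all genes. The median over the 8 factors of their mean signals was 789.8 on the log scale turned back to intensity, and over all genes it was 312. With 2 fate factors, the counts of the classes describe these genes and carry no test. Where a gene's probe sets were averaged in place of taking the best, 3 of 6 identity factors were bright, Pax5, Pou2f2 and Spib, against 38.0% of all genes.

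**Figure D1:**
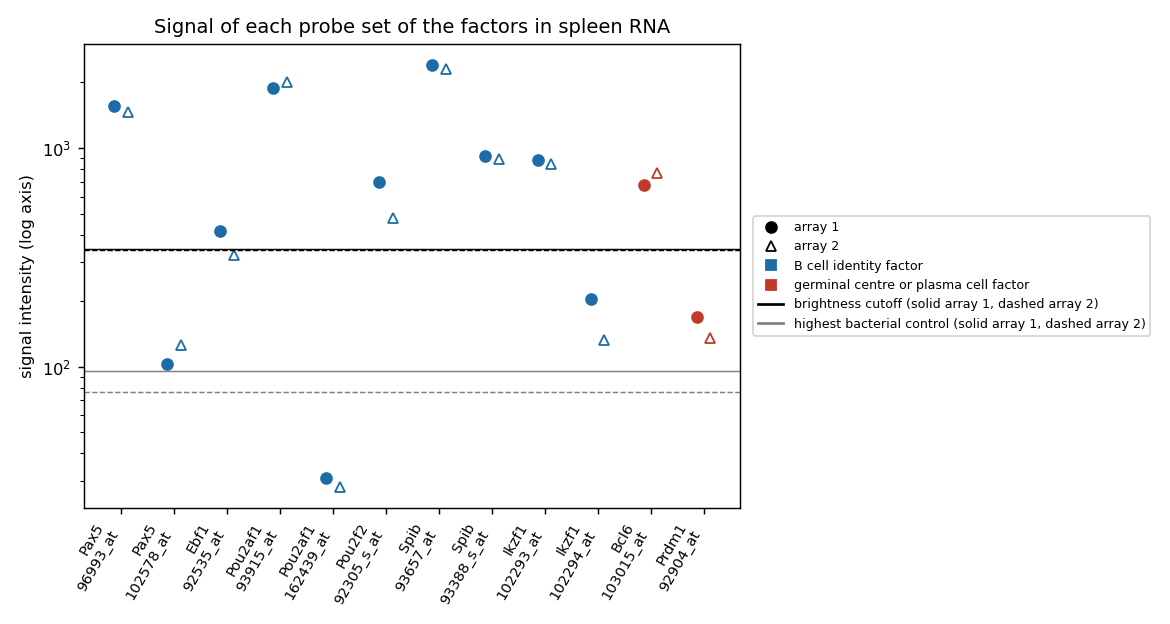
Signal intensity (log axis) of the 12 probe sets of the 8 factors, with filled circles for array 1, open triangles for array 2, blue for identity factors and red for Bcl6 and Prdm1. Black lines are the brightness cutoffs and grey lines the highest bacterial controls; 7 probe sets lie above the black lines on both arrays, Ebf1 straddles them, and the dim probe set of Pou2af1 lies below the grey lines.

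Promoters of the factors are shown with them below. RefSeq windows of assembly GRCm38.p6, each with 250 bases before and 50 from the transcription start onwards, were found for all 8 measured genes, 11 windows in all. They were searched on both strands for 6 short motifs of the factors' own classes: the octamer ATGCAAAT, the palindromic Ebf1 core CCCNNGGG, the Ets core AGGAAGT, the Ikaros core TGGGAAT, the Prdm1 core GTGAAAG and the Bcl6 motif TTCCTAGAA. The Ets and Ikaros cores share the letters GGAA. Only 4 of the 11 windows held any of these, and those 4 are printed with the match in capitals, so that a reader can see where it lies. The Ebf1 core was in 2 of 11 windows, against 13.7% of 32851 windows of all genes, and the Ikaros core was in 2 of 11, against 4.66%. The octamer was in 0 of 11 against 1.74%, the Ets core in 0 of 11 against 9.35%, the Prdm1 core in 0 of 11 against 4.24%, and the Bcl6 motif in 0 of 11 against 0.411%. These are matches of letters; the arrays measured no binding. The windows had a median GC content of 58%, against 52.7% for all windows, and ranged from 36.7% to 81.3%.

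Among the factors that open and fix the lineage, Pax5 was bright and Ebf1 lay at the cutoff. The Pax5 probe set 96993_at gave 1552.5 on array 1 and 1461.8 on array 2, a mean of 1507 ± 64.1 (SD, n = 2 arrays here and below). A second Pax5 probe set, 102578_at, gave 102.6 and 125.4, just above the bacterial controls on both arrays and below the brightness cutoff on both. Ebf1, read by the single probe set 92535_at, gave 418.4 on array 1 and 322.7 on array 2, a mean of 371 ± 67.7. It was therefore above the cutoff on array 1, below it on array 2, and at 4.40 and 4.23 times the highest bacterial control. With the cutoff set at the 50th percentile Ebf1 was bright on both arrays. Ebf1 has a pair of promoter windows, and the downstream one, chr11:44619978-44620277 on the plus strand, held an Ikaros core on its reverse strand, starting at position -208 from the transcription start.
Ebf1 downstream window: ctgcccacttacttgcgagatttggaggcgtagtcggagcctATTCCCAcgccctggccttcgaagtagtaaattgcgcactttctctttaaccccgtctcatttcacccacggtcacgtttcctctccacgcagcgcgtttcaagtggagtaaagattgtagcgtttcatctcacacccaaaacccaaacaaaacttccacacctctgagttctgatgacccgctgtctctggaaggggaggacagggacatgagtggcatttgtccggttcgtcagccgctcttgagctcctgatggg

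Ikzf1, which encodes Ikaros, a zinc finger protein needed from the first lymphoid progenitors on, gave 883.9 on array 1 and 845.8 on array 2 by the probe set 102293_at, a mean of 865 ± 26.9. This probe set was bright on both arrays. Its second probe set, 102294_at, gave 203.3 and 132.6, above the bacterial controls and below the brightness cutoff on both arrays. The window at the upstream start of Ikzf1, chr11:11685675-11685974 on the plus strand, was the richest in GC of the 11 and held an Ebf1 core starting at position -56.
Ikzf1 upstream window: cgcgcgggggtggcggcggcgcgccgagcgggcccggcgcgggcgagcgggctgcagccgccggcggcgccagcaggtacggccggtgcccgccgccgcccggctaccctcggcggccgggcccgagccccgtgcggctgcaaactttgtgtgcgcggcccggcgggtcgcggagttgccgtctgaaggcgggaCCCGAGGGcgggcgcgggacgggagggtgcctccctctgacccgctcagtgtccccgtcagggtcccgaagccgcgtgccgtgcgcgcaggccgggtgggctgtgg

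The octamer pair was bright. The coactivator Pou2af1 gave 1894.6 on array 1 and 2011.6 on array 2 by the probe set 93915_at, a mean of 1953 ± 82.7. Its other probe set, 162439_at, gave 30.8 and 28.2, and neither value reached the highest bacterial control. The bright and the dim reading of Pou2af1 thus stood on opposite sides of both cutoffs. Pou2f2, whose protein binds the octamer, had a single probe set, 92305_s_at, with 703.4 on array 1 and 481.1 on array 2 and a mean of 592 ± 157. Both values were above the brightness cutoff, but with the cutoff at the 75th percentile, 641.1 on array 1 and 633.5 on array 2, only array 1 passed. The suffix _s_at marks a probe set that can read several transcripts, so the Pou2f2 signal is uncertain in this respect.

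Spib was the only factor with more than a single probe set whose readings were all bright. Probe set 93657_at gave 2401.8 on array 1 and 2295.6 on array 2, a mean of 2349 ± 75.1, and 93388_s_at gave 921.2 and 895, a mean of 908 ± 18.5. All 4 values exceeded the brightness cutoff at the 75th percentile. Probe set 93388_s_at carries the same suffix as that of Pou2f2, so its signal is uncertain in the same respect. Its promoter window, chr7:44532022-44532321 on the minus strand, held a pair of Ebf1 cores that overlap, offset by a single base, starting at positions -65 and -64.
Spib window: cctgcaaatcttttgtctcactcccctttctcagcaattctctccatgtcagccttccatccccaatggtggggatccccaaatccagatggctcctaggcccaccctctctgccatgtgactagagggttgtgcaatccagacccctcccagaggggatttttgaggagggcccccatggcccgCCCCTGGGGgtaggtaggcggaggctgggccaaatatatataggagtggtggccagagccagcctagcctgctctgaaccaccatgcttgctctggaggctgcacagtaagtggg

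The fate factors stood on opposite sides of the brightness cutoff. Bcl6, the repressor that sets up the germinal centre programme, gave 677.9 on array 1 and 767.9 on array 2 by its only probe set, 103015_at, a mean of 723 ± 63.6. Both values also exceeded the 75th percentile of their array. Prdm1, the repressor that drives plasma cell differentiation, gave 169 on array 1 and 134.7 on array 2 by its only probe set, 92904_at, a mean of 152 ± 24.3. These values were below the cutoff on both arrays and 1.78 and 1.77 times the highest bacterial control. Prdm1 was also below the 50th percentile of both arrays, which was 227.05 and 227. Its window, chr10:44458699-44458998 on the minus strand, held an Ikaros core on its reverse strand, starting at position -190.
Prdm1 window: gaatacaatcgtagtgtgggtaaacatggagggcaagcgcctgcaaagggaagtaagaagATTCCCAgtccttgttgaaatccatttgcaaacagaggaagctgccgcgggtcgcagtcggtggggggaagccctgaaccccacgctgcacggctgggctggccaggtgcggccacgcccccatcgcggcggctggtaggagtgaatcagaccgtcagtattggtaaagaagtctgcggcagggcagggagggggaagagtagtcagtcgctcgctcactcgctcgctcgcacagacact

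Probe sets of the same gene disagreed for 3 of the 4 factors that had 2 of them: Pax5, Pou2af1 and Ikzf1 each had a bright and a dim reading, whereas both of Spib were bright. Among all 1675 genes with exactly 2 probe sets of their own, 38.9% had 1 bright and 1 not. Prdm1 and Ebf1, which were not bright, had no second probe set to set beside the first. The positions of the probes within the transcripts are not given in the sources used here.

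The differences between the arrays for the factors were set beside those of other probe sets. Log2 differences are array 1 minus array 2, after intensities below the 20th percentile of their array were raised to it and the median over bright probe sets was set to 0. The median absolute difference over the 12 probe sets was 0.13, against 0.15 over all probe sets and 0.12 over bright ones. Over only the 11 factor probe sets that exceeded the bacterial controls it was 0.18. Of the 12, 8 were higher on array 1 and 3 on array 2, and for 1, the dim probe set of Pou2af1, both values lay under the floor and gave no order. Pou2f2 was higher on array 1 by 0.55, and 97.2% of the 500 probe sets nearest to it in mean signal differed by less. It was the only 1 of the 12 beyond the 95th percentile of such neighbours. The dim Ikzf1 probe set was 1.53-fold higher on array 1, the only 1 of the 11 that exceeded the bacterial controls to pass 1.5-fold, against 7.24% of all such probe sets. Ebf1 was higher on array 1 by 0.37 and Prdm1 by 0.33, and 80.4% and 49.8% of their neighbours differed by less. The bright probe sets of Pax5, Pou2af1, Spib and Ikzf1 differed by -0.09 to 0.09, and Bcl6 was lower on array 1 by 0.18 (log2 difference -0.18).

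**Figure D2:**
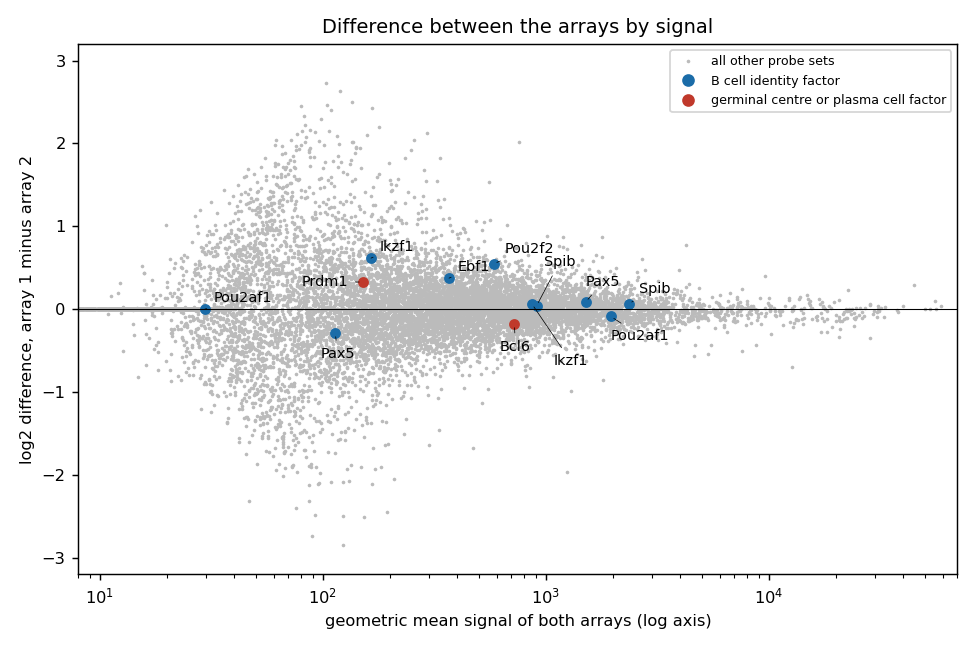
Log2 difference between the arrays (array 1 minus array 2, vertical axis) against the geometric mean signal of both (log axis), with all other probe sets in grey, identity factors in blue and Bcl6 and Prdm1 in red. The bright probe sets of Pax5, Pou2af1, Spib and Ikzf1 lie between -0.09 and 0.09, while Pou2f2 lies at 0.55, at the edge of the probe sets of like signal.

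Relatives of the factors from the same protein families were dim for the most part, with 2 of 15 measured genes bright, against 45.2% of all genes. Both were Ets factors related to Spib: Spi1, which encodes PU.1, gave 795 ± 37.8, and Spic, a factor of red pulp macrophages, gave 1437 ± 87.4. Of 7 other Pax genes 0 were bright and 3 exceeded the bacterial controls, against 45.2% and 73.9% of all genes. Pax8, a thyroid and kidney factor, gave 36.7 on array 1 and 32.2 on array 2. Neither Ebf2 nor Ebf3 was bright, at 46.5 ± 2.83 and 159 ± 24.9. The Ikaros relatives Ikzf2 (Helios) and Ikzf4 (Eos) were not bright either, at 36.95 ± 6.01 and 211 ± 49.9. Bcl6b, the closest relative of Bcl6, gave 120.0 ± 19.9. Each of these was read by probe sets of its own sequence, so a dim relative does not show a lower transcript level than that of the factor.

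Genes on which the identity factors act were also bright in part. Of 11 measured genes that Pax5 or Ebf1 activate, 7 were bright, against 45.2% of all genes, and 11 exceeded the bacterial controls, against 73.9%. They included the B cell receptor chains Cd79a at 10602 ± 380.0 and Cd79b at 7162 ± 98.4, the adaptor Blnk at 2241 ± 264, the inhibitory receptor Cd72 at 2319 ± 16.7 and the low-affinity IgE receptor Fcer2a at 2428 ± 348. The members of this list that were not bright were Cr2, Fcrla and the surrogate light chain genes Vpreb1, at 153 ± 17.3, and Igll1, at 221 ± 50.8, which pre-B cells use. Of 5 genes that need Pou2f2 or Pou2af1 in B cells 4 were bright, against 45.2% of all genes. The 4 were the follicular homing receptor Cxcr5 at 738 ± 15.98, the kinase Btk at 1278 ± 96.2, the chemokine receptor Ccr7 at 507 ± 74.0 and Ms4a1, which encodes CD20, at 8286 ± 255. Cd36, a scavenger receptor, gave 104 ± 5.94 and was not bright. Of the 9 genes of the first list with a promoter window, the Ebf1 core was found for 1, Igll1, against 13.7% of all windows. The Ets core was found for 4, Blnk, Cd72, Cd79a and Vpreb3, against 9.35%, the octamer for 2, Blnk and Vpreb3, against 1.74%, and the Ikaros core for 1, Fcer2a, against 4.66%. The Prdm1 core and the Bcl6 motif were found for 0 of the 9. A gene with several windows was counted once, so these counts and the shares of windows are not on quite the same base. For the second list none of the 6 motifs was found in the 2 genes with a window. Of 21 other B lineage factors with a promoter window, 4 held the Ebf1 core, 4 the Ets core and 0 the octamer. Of 10 germinal centre genes with a window 3, 0 and 1 held these motifs in that order, and of 13 plasma cell genes 3, 1 and 0. These motif counts include genes with no probe set of their own, such as Foxo1 and Neil1.

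Genes that Pax5 silences within B cells were bright in 5 of 9 measured cases, against 45.2% of all genes. They included Csf1r, the macrophage growth factor receptor, at 3581 ± 84.8, Flt3, a receptor of progenitors and dendritic cells, at 1053 ± 101, the receptor Notch1 at 632 ± 92.3, and Jchain, the joining chain of secreted antibodies, at 7612 ± 64.3. The T cell gene Cd28, at 373 ± 51.0, passed the cutoff on array 1, at 409.4, and not on array 2, at 337.3. Grap2, also a T cell gene, at 23.9 ± 3.54, was not bright. Nor were Fcer1g, at 105 ± 39.5, and Sdc1, at 90.95 ± 2.76. Spleen holds the cells that use these genes beside B cells, so their signal cannot be assigned to B cells in this RNA. Against 45.2% of all genes, 6 of 6 measured genes that Prdm1 represses were bright. They were Pax5, Spib and Bcl6, given above, and the class II transactivator Ciita at 859 ± 18.2, the growth regulator Myc at 379 ± 35.0 and the inhibitor of E proteins Id3 at 824 ± 111.

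Of the other transcription factors of the B lineage 16 of 20 measured genes were bright and 19 exceeded the bacterial controls. Irf4, which is needed for both germinal centre and plasma cell fates, gave 871 ± 56.6, and its relative Irf8 gave 3452 ± 388. Xbp1, which builds the secretory apparatus of plasma cells, gave 2143 ± 289.8. Ets1 gave 962 ± 38.5 and Myb, a factor of progenitors, gave 1003 ± 32.9. Tcf3, which encodes the E2A proteins that act upstream of Ebf1, gave 421.1 on array 1 and 304.8 on array 2, and so like Ebf1 passed the cutoff on array 1 and not on array 2. Runx1, Rel and Gfi1 were not bright, and Rel, a subunit of NF-kB, gave 9.6 and 30.7, no higher than the bacterial controls. The proteins through which Ikzf1 and Bcl6 repress genes were bright in 10 of 11 cases, against 45.2% of all genes. Among the 10 were Chd4, the chromatin remodeller of the NuRD complex, at 7974 ± 62.4 and the deacetylases Hdac1 at 1026 ± 40.4 and Hdac2 at 626 ± 26.7. Hdac3, at 235 ± 49.7, was not bright. The Chd4 probe set carries the suffix _f_at, which marks a family of similar sequences.

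Germinal centre and plasma cell genes were set beside Bcl6 and Prdm1. Of 9 measured germinal centre genes 6 were bright, against 45.2% of all genes. The sphingosine receptor S1pr2 gave 531 ± 3.18, Mef2b, known as an activator of BCL6 in human B cells, gave 663 ± 123 and the methyltransferase Ezh2, which other dividing cells use too, gave 873 ± 13.8. Mybl1 gave 62.5 on array 1 and 42.8 on array 2, below the highest bacterial control, Gcsam gave 177 ± 33.0 and Fas gave 62.1 ± 7.64. Of 12 measured plasma cell genes 7, Jchain, Xbp1 and Irf4 among them, were bright, against 45.2% of all genes. Creld2 gave 1152 ± 21.7, Txndc5 2106 ± 38.5, Ell2 1410 ± 28.001 and Sec11c 1303 ± 144. Markers of pancreatic acinar cells, given below, were bright too, and which cells gave the signals of this list was not tested. The surface markers Sdc1 (CD138), at 90.95 ± 2.76, and Tnfrsf17 (BCMA), at 217 ± 40.5, were not bright, whereas Jchain was, at 7612 ± 64.3. The Sdc1 probe set carries the suffix _f_at, like that of Chd4.

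**Figure D3:**
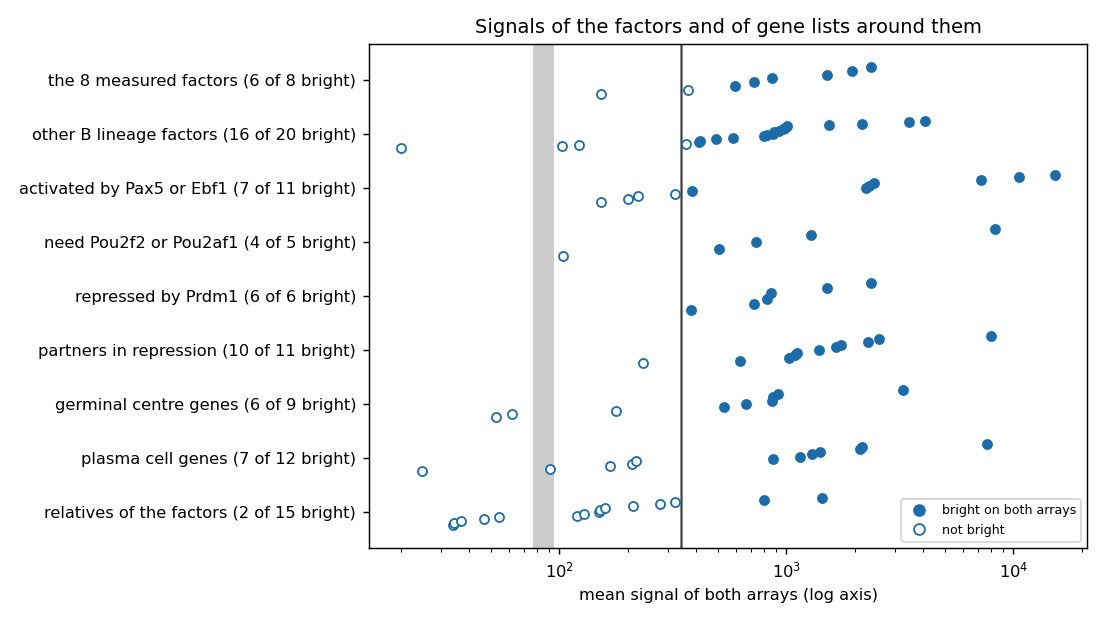
Mean signal of both arrays (log axis) of each measured gene, in rows for the 8 factors and for lists of genes around them, with filled circles for genes bright on both arrays and open circles for the rest. The dark line marks the brightness cutoffs and the grey band the highest bacterial controls. Of 20 other B lineage factors 16 are bright, against 2 of 15 relatives of the factors and 45.2% of all genes.

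Markers of the cell types that could carry these transcripts were bright for several lineages at once. Of the B cell markers 6 of 7 measured genes were bright, with summed signals of 32662 on array 1 and 32795 on array 2. T cell markers were bright in 7 of 7 cases, summing to 5713 and 5655, and macrophage markers in 6 of 6, summing to 21145 and 21087. Erythroid markers were bright in 3 of 3 cases, summing to 16377 and 16356. Of all genes 45.2% were bright. Of the germinal centre B cell markers 2 of 4 were bright, of the plasma cell markers 1 of 3, and of the natural killer cell markers 1 of 3. Of the follicular helper T cell markers 1 of 3 was bright, Cxcr5, which B cells share, while Pdcd1 and Icos were at or below the bacterial controls on at least 1 array. Both measured markers of plasmacytoid dendritic cells, Tcf4 and Irf7, were bright, and B cells and other cells make them too. Markers of pancreatic acinar cells, an organ next to the spleen, were bright in 5 of 5 cases, summing to 56394 and 58689. The part of each cell type in the signals of the 8 factors was not tested.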

How the data were processed

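Values came from the deposited value table of the series, which holds 1 signal intensity per probe set for 12488 probe sets on each array. The program behind these intensities and its settings are unnamed: not given in the sources used here. Leaving out the lowest and highest 2% of probe sets, the deposited intensities averaged 500.265 and 500.278, so the arrays shared a scale. Values were equal on both arrays for 23 of the 12422 non-control probe sets. No renormalization was done.

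Genes were named from the platform's annotation, using probe sets with a single symbol, and a gene took the probe set of highest mean log2 signal. The floor for log2 differences was the 20th percentile, 41.8 on both arrays. The difference step was tested on simulated data. An array has no read depth, and 2 arrays limit the precision. Genes, motifs and lists were chosen with earlier results of these data known. All 9 factors sought and every probe set of theirs are reported, and of each other list the genes named were taken from the start of the list, with others added after their values were seen. Alternatives changed the cutoff, the arrays, the probe set rule and the normalization. Python 3.11.15, numpy 2.4.6, pandas 2.3.3 and matplotlib 3.10.9 were used.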

Additional observations from a re-analysis of the deposited data

How the results depend on the processing

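The number of bright identity factors, 5 of 6, became 3 when all probe sets of a gene were averaged, where the dim probe sets of Pou2af1 and Ikzf1 entered: averaged, Pou2af1 fell below the cutoff on both arrays and Ikzf1 on array 2 alone, at 335 against 424 on array 1. The 4 signals that moved by more than 1 SD did so under this setting: Pax5 became 414, Pou2af1 240, Spib 1460 and Ikzf1 379. Averaging could not move the 4 factors with 1 probe set. With 2 arrays, each lies within 1 SD of their mean, so leaving out 1 array could not move a signal this far. The other 35 recomputed counts and differences stayed within 1.5 times the main count or within 0.15 on the log2 scale, the pooled SD of bright probe sets. At the edge of this limit, the 6 of 8 factors bright became 4 of 8 on averaging, against 38.0% of all genes. Some of the 35 could not move. Letting in probe sets of several genes changed nothing, since 0 of them named a factor. The median absolute difference, 0.13, could not fall by 0.15. Identity factors bright ranged from 4 with the cutoff at the 75th percentile, or without suffixed probe sets, which removed Pou2f2, to 6 with the cutoff at the 50th percentile or with array 1 alone. Bcl6 was bright and Prdm1 was not under every setting run. Each had a single probe set, so the settings that changed the probe set rule could not change their signals. No paired analysis was possible because there is only 1 group. Detection calls were not used, so whether a dim signal such as that of Prdm1 exceeds background rests on 15 bacterial control probe sets.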

Other observations

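Among the relatives of the factors and the other B lineage factors, 3 of 34 measured genes differed by more than 2-fold between the arrays, and they were singled out after their values were seen. Pax3, a factor of neural crest and muscle, read 228.9 on array 1 against 27.6 on array 2. With the array 2 value raised to the floor of 41.8, its log2 difference was 2.45. Pax1, a factor of the developing skeleton, read 206.2 on array 1 against 94.6 on array 2 (log2 difference 1.12). Gfi1, a repressor in blood progenitors, read 166.8 on array 1 against 77.4 on array 2 (log2 difference 1.11). None was bright, and with 2 arrays these gaps have no test. Among the 500 probe sets nearest in signal to Prdm1, at a mean of 152, the 95th percentile of the absolute log2 difference was 1.20. Nearest to the dim Pax5 probe set, at a mean of 114, it was 1.51. Pax1 and Gfi1 differed by less than both, and Pax3 by more. The share of all genes beyond 2-fold was not counted.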
